A study of Caenorhabditis elegans with 4 samples.

Results

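The 269 peaks described here are those that a chromatin immunoprecipitation and sequencing (ChIP-seq) study of the protein HIM-5 placed on the X chromosome of Caenorhabditis elegans, out of 2193 peaks in its series-level list, 2191 of them on the nuclear chromosomes. They were chosen by chromosome name alone. The study had 2 ChIP samples, precipitated with an affinity-purified rabbit polyclonal antibody against HIM-5 (SDQ2382), and 2 input DNA samples, which were not analysed here. All 4 came from hermaphrodites of 1 genotype, fem-2(b245)III, at 20 °C, so no wild type or him-5 mutant was set against them. The stage label says young adult with a germ line, while the growth protocol speaks of gravid animals. The extract came from ground worms, so germ-line and somatic nuclei were both in it. In the nematode the fem-2 gene promotes male fate, sperm included.

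HIM-5 takes its name from the high incidence of males that its loss causes. Males of this species carry a single X and arise when the X fails to segregate in meiosis. The protein is known for its part in making the meiotic double-strand breaks that become crossovers on the X. The X pairs with its homologue through a pairing centre near its left end, and in the adult germ line it is transcribed less than the autosomes.

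ChIP replicate 1 had 130 peaks on X among 903 nuclear peaks (14.4%), and replicate 2 had 126 among 1014 (12.4%), a mean of 128 ± 2.83 X peaks (SD, n = 2). In the series list X held 12.3% of the nuclear peaks (exact 95% interval 10.9% to 13.7%) on 17.7% of the nuclear span, or 15.2 peaks per Mb, against 20.9 (I) to 25.8 (III) on single autosomes. Coordinates are in the WormBase release WS220. The span of a chromosome is the end of its last peak in any of the 3 lists. For X this is 17718897, a value set by a peak and not checked against the length of X in the assembly. Read depth is unknown for all samples, so a site with no peak was not called, which does not show that it was unbound. Genes and sequences at the peaks are not given, because no genome or annotation of WS220 was used here.

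Peaks on X were of moderate width with a long upper tail. The median X peak was 338 bp wide (quartiles 199 and 550 bp), against 290 bp (193 and 501 bp) on the autosomes, whose single medians ran from 271 bp on III to 314.5 bp on V. The replicate lists gave medians of 382.5 and 464.5 bp on X, against 312 and 398 bp on the autosomes. On X 32 of 269 series peaks (11.9%) were 1 kb wide or more, against 196 of 1922 autosomal peaks (10.2%). All X peaks together covered 155 kb, or 8.77 kb per Mb, against 11.02 to 12.67 kb per Mb on single autosomes. Replicate 1 covered 6.02 kb per Mb of X, inside its autosomal range of 5.10 (II) to 7.17 (I), and replicate 2 covered 5.62 kb per Mb, against 6.13 (IV) to 8.78 (V). Each peak carries a score from the authors, whose scale no source used here states, and scores serve only to rank peaks within 1 list. The median X score was 6.12 (quartiles 4.22 and 10.7), against 5.59 (3.88 and 9.43) on the autosomes.

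Each X peak was then marked by the replicate lists that overlapped it by at least 1 bp. Replicate 1 overlapped 111 of the 269 X peaks (41.3%, exact 95% interval 35.3% to 47.4%), against 33.5% of all nuclear series peaks. Replicate 2 overlapped 109 (40.5%, 34.6% to 46.7%), against 40.1% of all nuclear peaks. Both lists overlapped 69 X peaks (25.7%, 20.5% to 31.3%), against 22.4% over the nuclear list, and on single autosomes this share ran from 18.3% on III to 26.1% on V. Another 42 X peaks (15.6%) were overlapped by replicate 1 only, against 11.1% of all nuclear peaks. A further 40 (14.9%) were overlapped by replicate 2 only, against 17.7% of all nuclear peaks. The remaining 118 (43.9%, 37.8% to 50.02%) were in neither replicate list, against 48.8% of all nuclear peaks and 39.04% to 55.3% on single autosomes. No test was run on these shares, and their intervals treat peaks as independent, which neighbours are not. The X values lay inside the range of the autosomes for both lists, for replicate 2 and for neither list. For replicate 1 they lay above it, as the highest autosomal share was 38.2% on V.

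Score and width both went with this support. For the 69 X peaks in both lists the median width was 881 bp. Their median score was 13.7, against 5.23 for the other 200 X peaks. The peaks of replicate 1 only had a median score of 5.70 and those of replicate 2 only one of 6.27, with median widths of 405.5 and 422.5 bp. For peaks in neither list the medians were 4.69 and 233 bp. They were 43.9% of the X peaks but 20.4% of the base pairs covered, while the 69 peaks in both lists held 56.9% of the base pairs. The 3 lists may rest on shared reads, so an overlap between the series list and a replicate list is no independent support.

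**Figure D1:**
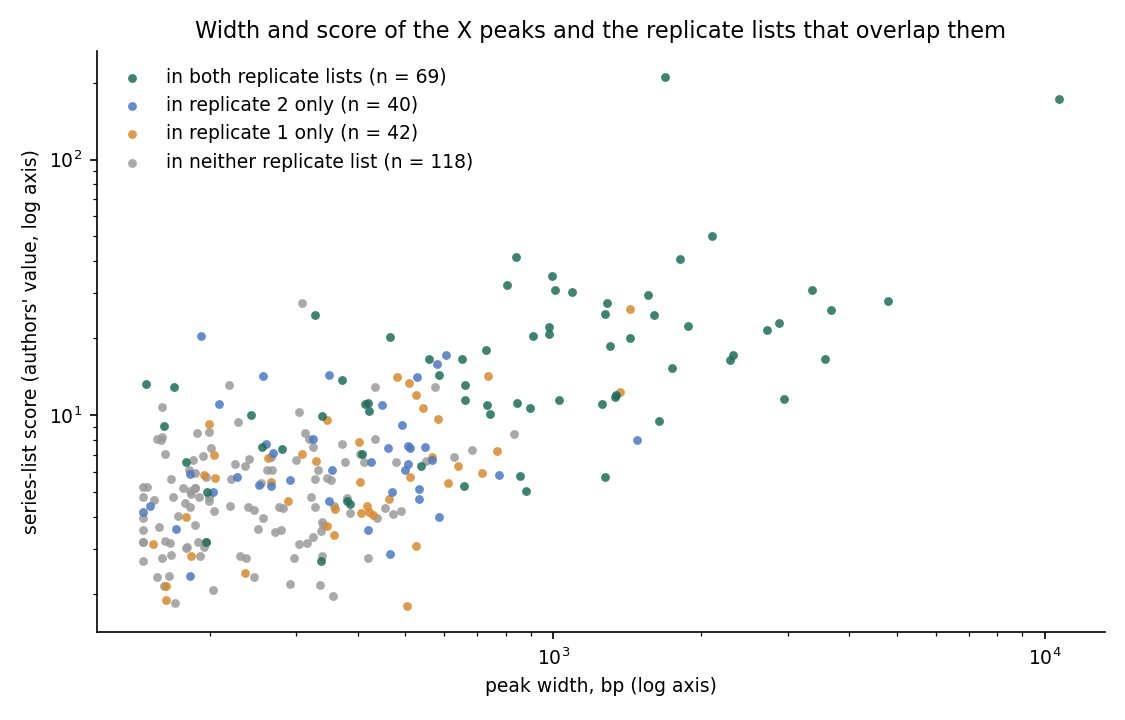
Width (bp, log axis) against series-list score (authors' value, log axis) of the 269 X peaks, 1 point per peak, coloured by the replicate lists that overlap it by at least 1 bp. All 11 peaks of 2 kb or more are in both lists, and no peak of 1 kb or more is in neither list.

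Ranked by score, the X peaks fell off quickly in support. Cut by rank into 4 groups, the highest group (68 peaks, scores 10.7 to 210.0) had 49 in both lists (72.1%, exact 95% interval 59.9% to 82.3%) and 5 in neither. The second group (67 peaks, 6.12 to 10.62) had 11 in both, the next had 7 and the lowest (scores 1.79 to 4.22) had 2. In that lowest group 46 of 67 peaks were in neither list (68.7%). The 10 highest X peaks were all in both lists, as were 37 of the highest 50 and 56 of the highest 100. By width, 11 of 11 X peaks of 2 kb or more and 18 of 21 from 1 to 2 kb were in both lists, against 25 of 81 from 400 bp to under 1 kb, 9 of 87 from 200 to under 400 bp and 6 of 69 under 200 bp. From widest to narrowest class these were 100%, 85.7%, 30.9%, 10.3% and 8.70%. On the autosomes the shares were 95.1%, 79.1%, 34.6%, 9.03% and 5.49%, so the fall with width was not particular to X. No such cut by score is given here for the autosomes. Among X peaks of 1 kb or more the share was 90.6% (74.98% to 98.02%), and among such autosomal peaks it was 85.7% (80.02% to 90.3%). A wide peak meets a 1 bp overlap more easily. Across the 269 X peaks score and width had a Spearman rho of 0.58, a description of peaks from 1 list.

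**Figure D2:**
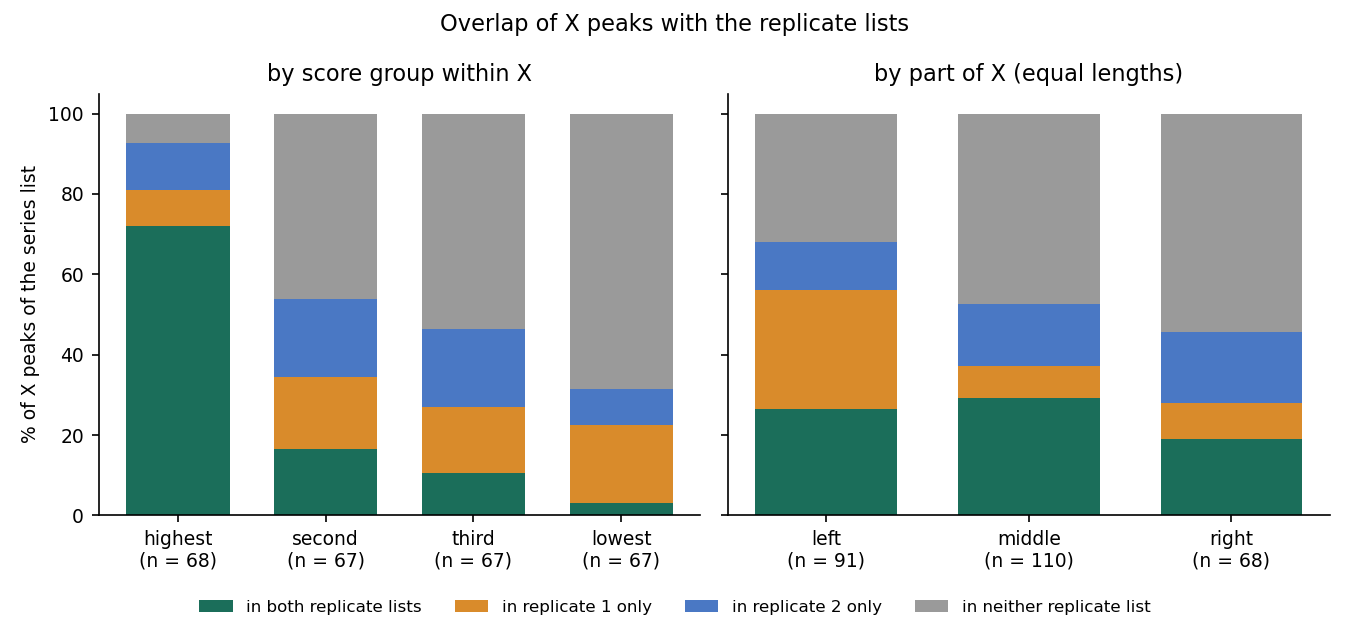
Percentage of X peaks of the series list that overlap both, 1 or neither of the replicate lists, by score group within X (left panel) and by part of the X span (right panel), with the number of peaks under each bar. The share in both lists is 72.1% in the highest group and 2.99% in the lowest, and 27 of the 42 peaks in replicate 1 only lie in the left part.

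Named sites were the 15 X peaks with the highest score and the 10 widest. The highest, from 1503427 to 1505113 (1687 bp, score 210.0), ranked 2 among all nuclear peaks. It met 1 peak of 1716 bp in replicate 1 and 1 of 1803 bp in replicate 2, both with a score of 3100. It stood alone, with 57214 bp to the peak on its left and 121892 bp to the one on its right.

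The second, from 16929246 to 16939920 (score 173.2), was the widest X peak at 10675 bp. It joined what the replicate lists split into 4 peaks (replicate 1) and 7 peaks (replicate 2). Some split points were close: both replicates began a peak at 16934849, and their next peaks began at 16936054 in replicate 1 and 16936050 in replicate 2. Others were in replicate 2 alone, which also began peaks at 16934112 and 16936852, each inside a single replicate 1 peak, and at 16939674. Replicate 1 gave 3100 to 2 of its pieces and replicate 2 to 1, and the lowest piece scored 236 in replicate 1 and 103 in replicate 2.

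After these 2 the scores dropped to 50.4 for the peak from 6252037 to 6254135 (2099 bp), which replicate 1 held as 1 peak of score 2170 and replicate 2 as 2 peaks of 872 and 934. Next came 8718187 to 8719027 (score 41.5), with 665 in replicate 1 and 698 in replicate 2, and 13349265 to 13351072 (40.7), with 1158 and 1508. The peak from 2890434 to 2891426 scored 34.95, with replicate peaks of 447 and 634. The peak from 1010647 to 1011452 scored 32.3, with 413 in replicate 1 and at most 318 in replicate 2. None of these 5 lay in a run of neighbouring peaks as defined below.

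The peaks ranked 8 to 13 on X scored 27.5 to 31.0. They lay at 11790428 to 11791435, 291946 to 295299, 5056162 to 5057251, 13143805 to 13145363, 109483 to 114284 and 14790654 to 14791936, and all were in both lists. Their replicate scores did not keep the order of the series list. The peak at 109483 had 3100 in replicate 1 and 2506 in replicate 2, while the peak at 11790428, with a higher series score, had 462 and 100.2. At 14790654 replicate 1 had 80.0 and covered 20.1% of the peak, and replicate 2 had 631 and covered 99.1%. Over the 69 X peaks in both lists, the highest replicate scores had a Spearman rho of 0.46 between the replicates. Neighbouring series peaks can meet the same replicate peak, so some scores enter this rho more than once. On X 5 peaks of replicate 1 and 2 of replicate 2 shared the top value of 3100.

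The peaks ranked 14 and 15 were not in both lists, and both lay near the right end. The last X peak, from 17718590 to 17718897 (308 bp, score 27.4), had no counterpart: the nearest replicate peak was 297092 bp away in replicate 1 and 406778 bp in replicate 2. The peak from 17420081 to 17421514 (score 26.1) met a replicate 1 peak of 1420 bp and score 1198, the last of that list on X, and its nearest replicate 2 peak was 108269 bp away. At the left end all 3 lists had a peak at the first bases, ending at 327 in the series list (score 24.7, rank 18 on X), at 327 in replicate 1 (990) and at 347 in replicate 2 (1206, the fifth highest of that list on X). Peaks at chromosome ends were not particular to X. On every autosome all 3 lists had a peak at the first bases. The last series peak set the end of the span there too, and no replicate peak reached that end.

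All of the 10 widest X peaks, from 2283 to 10675 bp, were in both lists. Besides those above they were 15807500 to 15811171, 14384693 to 14388268, 12665416 to 12668366, 7952294 to 7955176, 1752375 to 1755090, 4144641 to 4146958 and 2968812 to 2971094. Being in both lists did not mean being covered alike. The replicates covered all of the peak at 1752375, while at 12665416 replicate 1 covered 41.4% and replicate 2 covered 5.02%, by 1 peak of 148 bp.

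Edges were compared where a series peak met exactly 1 replicate peak that met no other, which leaves out split and joined peaks. Starts differed by a median of 85 bp in replicate 1 and 68 bp in replicate 2, and ends by 81.5 and 68 bp. For 58 such X pairs with replicate 1 the midpoints differed by a median of 56 bp, and for 69 pairs with replicate 2 by 46 bp. Midpoints lay within 100 bp in 45 and 61 of these pairs. The replicate peak was a median 0.99 times as wide as the series peak in replicate 1 and 0.98 times in replicate 2. A series peak met several replicate peaks at 21 X sites in replicate 1 and 16 in replicate 2.

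The replicates were also compared with each other on X. Of the 130 replicate 1 peaks, 66 overlapped replicate 2 (50.8%, exact 95% interval 41.9% to 59.6%), against 59.8% over the nuclear list, and on the autosomes the share ran from 49.7% on IV to 71.4% on I. Of the 126 replicate 2 peaks, 74 overlapped replicate 1 (58.7%, 49.6% to 67.4%), against 49.8% over the nuclear list and 43.9% to 53.2% on the autosomes. Replicate 1 peaks met by replicate 2 had a median score of 332, and the others 76.2. In replicate 2 these medians were 164 and 83.7. In base pairs the replicates shared 75.5 kb of X, which was 70.8% of replicate 1 and 75.8% of replicate 2, or 57.8% of their joint coverage, against 40.9% on IV to 61.3% on I.

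The series list overlapped 112 of the 130 X peaks of replicate 1 (86.2%), against 83.3% (III) to 93.9% (II) on single autosomes. It overlapped 117 of the 126 X peaks of replicate 2 (92.9%), against 86.7% (III) to 92.3% (IV). The 18 and 9 that it lacked had scores up to 136 and 95.2. The highest of the 18 lay from 109161 to 109347, 136 bp from the wide peak at 109483. The next, from 2056992 to 2057336 (score 115), was the only one called in both replicates, as 2056972 to 2057303 (75.3) in replicate 2, with a series peak 644 bp off. Then came 5046110 to 5046387, 1195233 to 1195520 and 5048699 to 5048936 (scores 87.4, 86.4 and 76.03). The highest of the 9 were 8181909 to 8182169 (95.2), 10055181 to 10055458 (82.1) and 12195255 to 12195486 (77.8), followed by the one that replicate 1 shared and by 5429351 to 5429724 (72.6). Joined across the 3 lists, X peaks formed 265 separate intervals, 52 of them in all 3 lists and 118 in the series list alone. Another 34 were in the series list and replicate 1, and 35 in the series list and replicate 2. The rest were 17 in replicate 1 alone, 8 in replicate 2 alone and 1 in both replicates without the series list. Joined intervals are not given here for the autosomes.

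The 118 series peaks in neither list were partly neighbours of replicate peaks. Of these, 37 lay less than 1 kb from a peak of either replicate (31.4%) and 62 less than 10 kb (52.5%), while 18 lay 100 kb or more away. Such distances are not given here for the autosomes, so whether these shares are particular to X is not known. Only 6 of the 118 scored above 10. After the right-end peak the highest were 2996958 to 2997176 (score 13.2), 6271917 to 6272350 (12.9), 1012139 to 1012712 (12.9) and 1909495 to 1909654 (10.7), named after their values were seen.

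Peaks were spread over the whole X, with a wide range between blocks of 1 Mb. The 18 blocks held 15.4 ± 7.72 series peaks per Mb (SD over blocks), from 5 to 27. The 5 densest were those from 8 to 9 Mb (27 peaks), from 17 Mb to the right end (26.4 per Mb), from 1 to 2 Mb and from 5 to 6 Mb (25 each), and from 4 to 5 Mb (21). The 5 sparsest were those from 3 to 4, 12 to 13 and 16 to 17 Mb (5 each), from 15 to 16 Mb (6) and from 9 to 10 Mb (9). With peaks less than 10 kb apart taken as 1 site, the dense blocks held 7, 8, 11, 5 and 4 sites, in the order given. The sparse blocks held 3, 3, 4, 4 and 6 sites. From 5 to 6 Mb 18 of the 25 peaks lay in runs as defined below. A dense block in the series list was not always dense in both replicates. From 5 to 6 Mb replicate 1 had 19 peaks, 14 of them in 1 run, and replicate 2 had 6. From 8 to 9 Mb replicate 1 had 3 and replicate 2 had 16, 6 of them in 1 run. The right-end block had 5 peaks in replicate 1 and 3 in replicate 2. The sparse block from 16 to 17 Mb held the second highest X peak. Over the 18 blocks the densities of the replicates had a Spearman rho of 0.39, as a description of blocks within 1 chromosome.

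**Figure D3:**
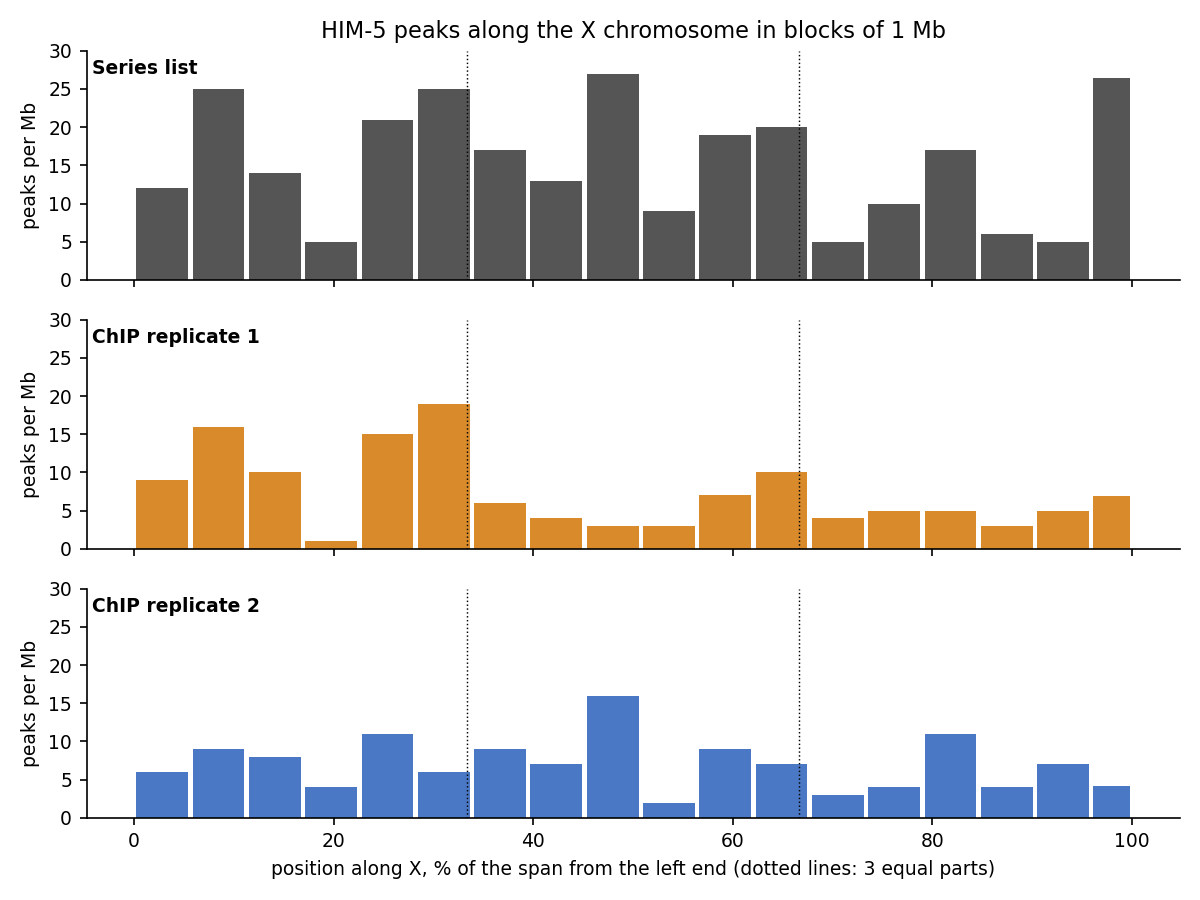
Peaks per Mb along X in blocks of 1 Mb (the last block is shorter), for the series list, ChIP replicate 1 and ChIP replicate 2; position is given as % of the X span from the left end, and dotted lines mark 3 parts of equal length. Series-list blocks run from 5 to 27 peaks per Mb, while the highest block has 19 in replicate 1 and 16 in replicate 2.

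With the span cut into 3 parts of equal length, the series list had 91 X peaks on the left (33.8%), 110 in the middle (40.9%, exact 95% interval 35.0% to 47.03%) and 68 on the right (25.3%, 20.2% to 30.9%). The X middle share lay inside the range of single autosomes, 32.7% (I) to 45.5% (II). Their left shares ran from 19.4% (II) to 30.2% (I) and their right shares from 27.6% (V) to 37.1% (I). In base pairs covered, the 3 parts of X were nearly equal, at 33.9%, 33.7% and 32.4%. The replicates differed in where their X peaks lay. Replicate 1 had 66 of 130 in the left part (50.8%, 41.9% to 59.6%) and replicate 2 had 42 of 126 (33.3%, 25.2% to 42.3%). On the autosomes replicate 1 had 17.6% to 37.5% of its peaks in the left part. Of the 64 replicate 1 X peaks that replicate 2 did not overlap, 39 were in the left part (60.9%), against 27 of the 66 that it did (40.9%). Peaks in dense runs carried part of this count: outside runs of 6 or more the left-part share was 40.7% in replicate 1 and 39.6% in replicate 2. With peaks less than 10 kb apart merged it was 40.6% in replicate 1 and 37.7% in replicate 2.

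Support also varied along X, and not alike in the replicates. In the left part 24 of 91 series peaks were in both lists (26.4%) and 27 in replicate 1 only. Of these 27, 9 lay in the run from 5045470 and 3 in the run from 1883395, both described below. In the middle 32 of 110 were in both (29.1%, 20.8% to 38.5%), and on the right 13 of 68 (19.1%, 10.6% to 30.5%). The intervals of these shares overlapped. The share in neither list was 31.9% on the left (22.5% to 42.5%), 47.3% in the middle (37.7% to 57.02%) and 54.4% on the right (41.9% to 66.5%). Only the overlap with replicate 1 fell steadily from left to right, at 56.0%, 37.3% and 27.9% of series peaks. Replicate 2 overlapped 38.5%, 44.5% and 36.8%. The first 2 Mb of X, the end that carries the pairing centre, held 37 series peaks (13.8%, 9.87% to 18.5%) on 11.3% of the length. Of these 37, 11 were in both lists (29.7%, 15.9% to 46.98%) and 13 in replicate 1 only, and 3 ranked among the 10 highest of X. Of the 232 peaks in the rest of X, 58 were in both lists (interval 19.6% to 31.1%) and 29 in replicate 1 only. The intervals for both lists overlapped, and no test was run. Counts for the first 2 Mb of the autosomes are not given here, so whether these values are particular to X is not known. Replicate 1 had 25 of its 130 X peaks in the first 2 Mb (19.2%) and replicate 2 had 15 of 126 (11.9%). The median series score was 5.94 in the first 2 Mb and 6.12 in the rest of X.

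Spacing on X ran from tight groups to long empty stretches. Of the 268 gaps between neighbouring X peaks, 140 were under 2 kb (52.2%) and 59 were 100 kb or more (22.01%), against 46.1% and 14.2% of the 1917 autosomal gaps. On single autosomes gaps under 2 kb made up 35.3% (III) to 54.1% (II), and gaps of 100 kb or more 10.4% (II) to 16.9% (V). In replicate 1 gaps under 2 kb made up 43.4% on X and 44.0% on the autosomes, and in replicate 2 41.6% and 41.3%. Gaps of 100 kb or more made up 40.3% on X and 29.8% on the autosomes in replicate 1, and 35.2% and 27.6% in replicate 2. Of the other X gaps, 11 measured from 2 to under 5 kb, 7 from 5 to under 10 kb, 30 from 10 to under 50 kb and 21 from 50 to under 100 kb. The median X gap was 1.21 kb (quartiles 0.252 and 74.3 kb), against 1.28 (II) to 15.9 kb (I) on single autosomes. In the replicate lists this order was reversed. The median X gap was 34.8 kb in replicate 1, against 2.05 (V) to 22.5 kb (I). In replicate 2 it was 34.1 kb, against 2.73 (V) to 25.7 kb (I). Gaps of 100 kb or more took up 84.7% of the X span, against 54.9% on III to 74.1% on V. Gap length also depends on peak density, which was lower on X than on any autosome.

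**Figure D4:**
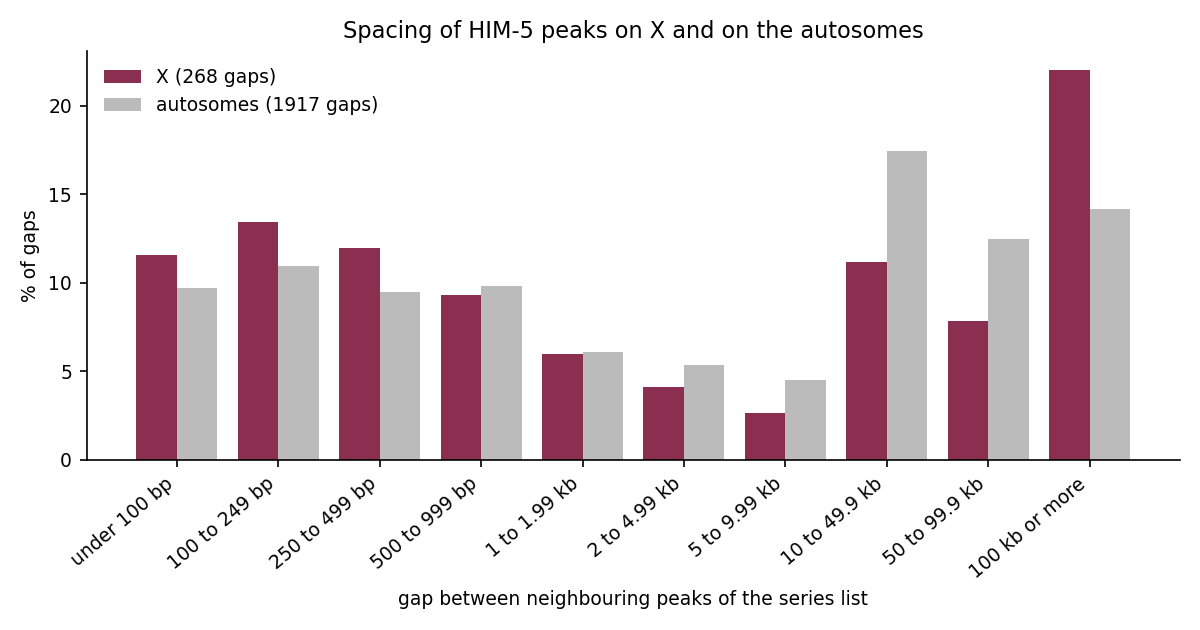
Percentage of gaps between neighbouring series-list peaks by gap length (classes of unequal width), for X (268 gaps) and the autosomes (1917 gaps). X has 22.01% of its gaps at 100 kb or more and the autosomes 14.2%, while from 10 to under 50 kb X has 11.2% and the autosomes 17.4%.

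The 5 longest stretches of X with no series peak were 3116479 to 4016769 (900 kb), 4247195 to 5045469 (798 kb), 16056649 to 16677245 (621 kb), 11977736 to 12521842 (544 kb) and 7445877 to 7952293 (506 kb). In the series list the longest such stretch on any autosome was 628 kb, on II, but the replicate lists did not keep this order. In replicate 1 the longest was 1009 kb on X, against 1608 kb on I, and in replicate 2 it was 1118 kb on X, against 1140 kb on II. The stretches that begin at 3116479, 16056649 and 7445877 held no replicate peak. The one at 4247195 held 1 peak of replicate 1, and the one at 11977736 held 1 of each replicate.

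With peaks less than 10 kb apart taken as 1 site, X had 111 sites, or 6.26 per Mb, against 8.46 (V) to 13.0 (III) on single autosomes. A site on X held a mean of 2.42 peaks, against 1.86 (I) to 2.58 (V). Of the 111 sites, 55 were single peaks, 47 held 2 to 5 and 9 held 6 or more. A site counted as met by both lists where each overlapped any of its peaks, which was not always the same peak. Both replicate lists met 49 of the X sites (44.1%, exact 95% interval 34.7% to 53.9%), against 26.04% (I) to 36.2% (V) of autosomal sites, and neither met 36 (32.4%), against 35.03% (V) to 52.1% (I). The X interval includes the highest autosomal share, and the difference was not tested. The 111 sites were split evenly along X, with 37 in each part.

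Runs were taken as 6 or more neighbouring peaks with gaps under 2 kb. X had 8 runs with 65 peaks (24.2%, exact 95% interval 19.2% to 29.7%), against 18.9% of all nuclear peaks and 9.58% (III) to 22.6% (IV) on single autosomes. Both replicates met 17 of the 65 (26.2%), against 52 of the 204 X peaks outside runs (25.5%). Their median score was 5.27, against 6.55 outside runs.

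The runs differed widely in support, as the plot of runs shows. The run from 10361059 to 10368977 held 11 peaks of score up to 11.4, with 11 in replicate 1 and 10 in replicate 2. Replicate 1 drew it as 3 peaks and replicate 2 as 7. The run from 11785611 to 11793406 held 6 peaks with a median score of 22.7 and a highest score of 31.0, and 5 were in both lists, as 4 peaks in each replicate. These were the only X runs with most peaks in both lists.

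Another 4 runs were seen in 1 replicate only. The run from 5045470 to 5053926 had 10 series peaks, 9 of them met by replicate 1 in 14 peaks of scores 50.7 to 154, and none in replicate 2. The run from 1883395 to 1887112 (6 peaks) had 3 replicate 1 peaks of 140 to 187 and none in replicate 2. The runs from 7439261 to 7445876 (9 peaks) and from 8017418 to 8023002 (7 peaks) each had 3 replicate 2 peaks, of at most 221 and 138, and none in replicate 1. All series peaks in the run at 5045470 scored 7.86 or less.

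The last 2 runs differed from each other. The run from 4141302 to 4148031 had 8 peaks, 2 in replicate 1 and 5 in replicate 2, around its wide peak at 4144641. The run from 5940590 to 5944005 had 8 peaks with scores up to 6.12 and a median gap of 188 bp, and none was in either replicate list. The replicate lists had runs of their own. In replicate 1 these were 14 peaks from 5045452 to 5053972 and 8 from 4025988 to 4030801, and in replicate 2 they were 7 from 16929287 to 16939919, 7 from 10361152 to 10368949 and 6 from 8473534 to 8477313. The run at 16929287 in replicate 2 lay within the single widest series peak on X.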

How the data were processed

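The deposited files were 3 peak lists, 1 for the series and 1 for each ChIP replicate. The authors deposited a start, an end and a score per peak, on a score scale that no label or header states. Peaks were called with MACS v2 (series) and MACS (replicates) on WormBase WS220, per the file headers and columns. Reads were aligned with BWA to ce10, per the submitters' processing notes. Calling settings, any use of the inputs and which reads went into the series list are not given in the sources used. Whether the replicates were separate cultures is not in the labels.

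Samples were grouped by title. Coordinates are 1-based. Overlap meant 1 bp or more in common. Gaps ran from the end of a peak to the start of the next. Blocks were of 1 Mb, with a last block of at least 500 kb, and a peak was placed by its midpoint. Intervals are exact Clopper-Pearson at 95% and cover counting error only. No test was run, since the only samples compared were 2 replicates of 1 group. The self-check of the overlap, run and merging steps on simulated lists returned the known answers. The members, lists and named-site rules were chosen with earlier results of these data known. Named sites were the 15 highest-scoring and 10 widest X peaks, all runs, the 5 longest empty stretches, the first and last peaks, the 5 densest and 5 sparsest blocks, and the 5 highest X peaks of each replicate list that the series list lacks. Python 3.11.15, pandas 2.3.3 and scipy 1.17.1 were used. A gene table of WBcel235, a different build, was not used.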

Additional observations from a re-analysis of the deposited data

How the results depend on the processing

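Of 46 alternatives tried on 11 X values, 18 stayed inside the 95% interval of the value reported (or, for the comparison of median scores, within 1.5 times of it), and 28 did not. The values follow, and in the ranges over replicate lists the X share of 12.4%, the middle share of 39.7% and the left 2 Mb share of 11.9%, all from replicate 2, were among those that stayed inside. The X share of peaks was 12.4% to 14.4% in the replicate lists alone and 14.1% among peaks in both lists. The share of X peaks in both replicate lists was 12.6% where the overlap had to reach 50% of each peak, 15.2% with midpoints within 200 bp and 44.8% in the higher-scoring 50%. The share in neither was 63.2% with the 50% overlap, 26.1% in the higher-scoring 50%, and 58.7% to 59.5% with 1 replicate list left out. The share in the middle part of X was 26.2% to 39.7% in the replicate lists alone, 33.3% with peaks less than 10 kb apart merged and 33.8% outside runs. The share in the left 2 Mb was 11.9% to 19.2% in the replicate lists alone. The share in runs was 55.4% with at least 3 peaks, 4.48% in the higher-scoring 50% and 15.9% to 16.9% in the replicate lists alone. The median gap was 106 kb among peaks in both lists, 83.8 kb with peaks less than 2 kb apart merged and 34.1 to 34.8 kb in the replicate lists alone. The median width was 881 bp among peaks in both lists and 382.5 to 464.5 bp in the replicate lists alone. With the 50% overlap, replicate 1 peaks met by replicate 2 were 35.4% and the reverse 36.5%. In the higher-scoring 50% of each list they were 76.9% and 74.6%. The cause of these changes was not tested beyond what each setting does by its own construction. Leaving out runs was chosen after seeing the data. No paired analysis was possible because inputs were not analysed here and no value comes from a test. Sequence at X peaks was planned but could not be read without a WS220 genome. With read depth unknown, a peak absent from a list was only not called there.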
